A study of Mus musculus with 6 samples.

Results

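The Zfp36 family of mRNA-decay factors, the MAP kinase phosphatases Dusp1 and Dusp6, and the immediate early genes Ier2, Ier3 and Btg2 were examined in sorted intestinal fibroblasts. The 8 genes were listed together as regulators that limit cytokine output, a label of the group that need not hold for each gene. All 8 were found by symbol among the 15238 genes of the deposited gene table and passed its filter on low counts. 3 of them belong to the Zfp36 family and 2 are MAP kinase phosphatases, while Ier2, Ier3 and Btg2 belong to neither family. They were chosen by name with their CPM in these 6 libraries and the difference between the genotypes known, so their levels and fold changes are given as a description, without a test.

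The fibroblasts were sorted from intestines of Balb/c pups at postnatal day 9 as podoplanin-positive cells from which CD45, EpCAM and CD31 positive cells were gated out. The 3 DdblGata1 libraries (replicates 4, 9 and 10) came from pups in which a promoter element of the blood transcription factor gene Gata1 is deleted and which lack eosinophils. The 3 wild-type libraries (replicates 1, 3 and 4) came from pups of the same strain and age, and all 6 were bulk RNA libraries from tissue stripped with EDTA and digested with Liberase and DNase. The deletion is carried by the whole animal, and the labels give neither sex nor litter, nor say that each library came from its own pup, so any p-value below measures the spread between these libraries only.

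As background, Zfp36 (also called tristetraprolin) and its relatives bind AU-rich elements in the 3′ untranslated regions (UTRs) of short-lived messages and recruit the CCR4-NOT complex, which removes the poly(A) tail. MAP kinase phosphatases switch the kinases off again by removing phosphate from their activation loop, and the kinase p38 in turn holds Zfp36 protein inactive through MK2. Most of these genes are transcribed within minutes of a stimulus, and tissue digestion is itself known as such a stimulus.

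Depth was even, with 28110454 to 30993472 estimated counts per library in DdblGata1 and 30210644 to 31210800 in wild-type. The sum of 7 fibroblast markers was 54997 to 67211 TPM (a share of all transcripts, corrected for transcript length) in DdblGata1 and 45972 to 67688 TPM in wild-type, so the libraries carried the labelled cell type. Ptprc, the gene of CD45, had 0.365 to 0.467 TPM in DdblGata1 and 0.363 to 1.96 TPM in wild-type. The 9 leukocyte markers summed to 28.0 to 44.4 TPM in DdblGata1 and 23.8 to 61.3 TPM in wild-type, but single genes moved otherwise. The T cell gene Cd3e had 0.203, 7.21 and 5.77 TPM in DdblGata1 replicates 4, 9 and 10, against 1.602, 0.475 and 0.746 TPM in wild-type replicates 1, 3 and 4, and the macrophage gene Cd68 had 5.22, 12.7 and 9.86 TPM in DdblGata1, against 8.97, 4.38 and 3.55 TPM in wild-type. Cd3e and Cd68 were both highest in DdblGata1 replicates 9 and 10, the libraries in which most of the 8 genes were highest. Their part in that was not tested. Other leukocyte genes went the other way. The myeloid gene Lyz2 had 15.3, 14.6 and 10.7 TPM in DdblGata1, against 30.3, 21.7 and 15.8 TPM in wild-type, lower without overlap. Coro1a and Cd52 were highest in wild-type replicate 1. The eosinophil gene Prg2 was listed at 0 in DdblGata1 replicate 4 and had 2.33 and 0.897 TPM in replicates 9 and 10. In wild-type it had 0.552, 0.249 and 0.182 TPM. The eosinophil gene Siglecf had 0.163, 0.0363 and 0.176 TPM in DdblGata1, against 0.326, 1.19 and 0.135 TPM in wild-type. Neither was among the genes of the deposited gene table, and neither level marked the genotype. The 7 epithelial markers summed to 351 to 436 TPM in DdblGata1 and 251 to 1367 TPM in wild-type, the top value being wild-type replicate 1. The 7 endothelial markers summed to 46.7 to 68.8 TPM in DdblGata1 and 25.8 to 31.8 TPM in wild-type, and without Tek to 8.93 to 13.2 TPM in DdblGata1 and 8.84 to 14.7 TPM in wild-type. The 7 smooth muscle markers, all lower by value, summed to 5836 to 8901 TPM in DdblGata1 and 8299 to 13104 TPM in wild-type, and the 7 glial and neuronal markers to 107 to 176 TPM in DdblGata1 and 72.6 to 189 TPM in wild-type. The part of these cells in the values below was not tested, and in bulk RNA fewer cells of a type and less RNA per cell cannot be told apart.

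AU-rich elements of the members are shown first, because the same element that Zfp36 proteins bind lies in the messages of the Zfp36 family itself. In each GRCm38 sequence, read from the GENCODE 3′ UTR on the gene's own strand, capitals mark the nonamer TTATTTATT or, where a member has none, the heptamer TATTTAT that lies inside the nonamer.
Zfp36, chr7:28376950-28376979, minus strand: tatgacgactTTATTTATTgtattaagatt
Zfp36l1, chr12:80108166-80108195, minus strand: aactgttggaTTATTTATTttagaaattct
Zfp36l2, chr17:84184913-84184942, minus strand: actatttaacTTATTTATTatcttgtgaaa
Dusp1, chr17:26506158-26506187, minus strand: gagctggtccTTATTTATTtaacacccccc
Ier3, chr17:35822481-35822510, plus strand: tgtctaattaaTATTTATgtatttatgtat
Btg2, chr1:134077248-134077277, minus strand: aaatgaagagcTATTTATacatgttttttt

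The heptamer was found in the 3′ UTR of 6 of the 8 members, 3 times each in Zfp36, Zfp36l1, Zfp36l2 and Dusp1, 4 times in Ier3 and once in Btg2. Dusp6 and Ier2 had none, although their UTRs of 1189 and 755 bases were longer than the 613 bases of Ier3. Among 14248 genes with a 3′ UTR of at least 100 bases, 28.9% held the heptamer and 7.50% the nonamer. Longer UTRs hold more of both, so shares were also taken among UTRs of like length (0.8 to 1.25 times). There the heptamer was in 20.0% for Zfp36, 38.8% for Zfp36l1, 38.6% for Zfp36l2, 19.5% for Dusp1, 17.8% for Ier3 and 42.5% for Btg2. The nonamer was in 4.32% for Zfp36, 9.05% for Zfp36l1, 8.9% for Zfp36l2 and 4.28% for Dusp1, which has 2 of them. A match of letters is a description and not a binding site.

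Promoter sequences of 250 bases before the gene start were matched for 6 of the 8 members from RefSeq (GRCm38.p6), with Ier2 and Zfp36l2 not matched. Btg2 and Dusp1 are shown because both windows hold the full cyclic AMP response element TGACGTCA, marked in capitals, which was in 1.62% of 27025 such windows (both strands searched). The Dusp1 window is cut to the 203 bases outside annotated exons.
Btg2, chr1:134079156-134079405, minus strand: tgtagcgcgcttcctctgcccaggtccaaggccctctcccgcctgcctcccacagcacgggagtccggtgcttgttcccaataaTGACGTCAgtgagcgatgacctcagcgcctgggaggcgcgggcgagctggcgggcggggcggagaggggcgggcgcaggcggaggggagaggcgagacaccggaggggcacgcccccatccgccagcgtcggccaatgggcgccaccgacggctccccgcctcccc
Dusp1, chr17:26508520-26508722, minus strand: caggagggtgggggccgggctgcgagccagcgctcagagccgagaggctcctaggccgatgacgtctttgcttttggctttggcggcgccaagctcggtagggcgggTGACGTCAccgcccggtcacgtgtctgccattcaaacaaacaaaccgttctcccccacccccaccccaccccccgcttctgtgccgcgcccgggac

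Among the other motifs searched in these windows, the CArG box of serum response factor was found in Zfp36 alone of the matched members (1.4% of all windows). The EGR motif GCGNGGGCG was found in Zfp36 and Btg2 (4.65% of windows). The AP-1 motif TGANTCA was found in Zfp36l1 (6.87% of windows), which also held TATAAA (13% of windows). The kappaB motif, in a loose form present in 22.9% of windows, was found in Dusp1 and Ier3. The Dusp1 matches reach into the 47 bases of annotated exon that were cut from the sequence shown. The Dusp6 window held none of the motifs searched. The Zfp36 window lies wholly within the first exon of an annotated Zfp36 transcript that starts 1025 bases upstream of the RefSeq start, so it is not purely upstream sequence.

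Zfp36 (ENSMUSG00000044786, GRCm38 chr7:28376784-28380253, minus strand) gave the widest separation of the 8. Its levels were 584, 914 and 732 CPM (counts relative to the TMM-scaled library total) in DdblGata1 replicates 4, 9 and 10, against 365, 358 and 415 CPM in wild-type replicates 1, 3 and 4. Every DdblGata1 library lay above every wild-type library, with the lowest DdblGata1 value in replicate 4. The means were 744 ± 165 CPM in DdblGata1 and 379.6 ± 31.2 CPM in wild-type (SD, n = 3 each), a fitted log2 fold change, DdblGata1 minus wild-type, of 0.97 ± 0.20 (SE). Over 13 other ways of fitting it ran between 0.78, without DdblGata1 replicate 9, and 1.12, without DdblGata1 replicate 4. An antisense gene, Gm44710, overlaps Zfp36, and the sources used here do not say whether counting used strand.

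Zfp36l2 (ENSMUSG00000045817, chr17:84183931-84187947, minus strand), a paralogue best known from blood stem cells and lymphocytes, had 167, 208 and 213 CPM in DdblGata1 replicates 4, 9 and 10, against 151, 166 and 152 CPM in wild-type replicates 1, 3 and 4. The groups did not overlap, but DdblGata1 replicate 4 exceeded wild-type replicate 3 by under 1 CPM. The means were 196 ± 25.5 CPM in DdblGata1 and 156 ± 8.52 CPM in wild-type (SD, n = 3 each), and the log2 fold change was 0.33 ± 0.15 (SE).

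Zfp36l1 (ENSMUSG00000021127, chr12:80107754-80113013, minus strand), a paralogue with a known role in vascular development of the mouse embryo, had 290.1, 387 and 408 CPM in DdblGata1 replicates 4, 9 and 10, against 356, 314 and 362 CPM in wild-type replicates 1, 3 and 4. DdblGata1 replicate 4 was the lowest of all 6 libraries and the other DdblGata1 libraries were the highest. The means were 362 ± 62.9 CPM in DdblGata1 and 344 ± 25.9 CPM in wild-type (SD, n = 3 each), and the log2 fold change of 0.07 ± 0.17 (SE) was smaller than its error. It was 0.19 from plain sums of transcript counts and -0.04 without DdblGata1 replicate 10, so its direction is not fixed by these libraries. Genes on the opposite strand, Gm26669 and AC132455.1, overlap Zfp36l1 and Zfp36l2.

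The make-up of the family differed accordingly. By TPM, which allows levels of different genes to be set side by side, Zfp36 made up 54.0%, 58.4% and 51.7% of the family's summed level in DdblGata1 replicates 4, 9 and 10, against 39.1%, 40.4% and 41.9% in wild-type replicates 1, 3 and 4. Zfp36l1 made up 34.0%, 31.3% and 36.5% in the same DdblGata1 libraries, against 48.3%, 44.9% and 46.2% in wild-type. Zfp36 was thus the most abundant family message in all 3 DdblGata1 libraries and Zfp36l1 in all 3 wild-type libraries. That order in wild-type rests on Zfp36l1-204, a 545-base transcript model given 36.9 to 77.9 TPM there: counting Zfp36l1-201 alone (178, 172 and 183 TPM), Zfp36 was above Zfp36l1 in wild-type too. The order in DdblGata1 rests in turn on Zfp36-202, a single-exon model that keeps the intron. The spliced Zfp36-201 alone had 72.3, 144 and 132 TPM there, below Zfp36l1 at 217, 287 and 289.9 TPM. Zfp36-201 starts 1025 bases upstream of the RefSeq start and Zfp36-202 close to it, so spliced RNA from that start has no model of its own. The split between the models is thus no measure of how much Zfp36 RNA keeps the intron. The family sum was 638, 917 and 794 TPM in DdblGata1 and 508, 466 and 566 TPM in wild-type, without overlap.

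**Figure D1:**
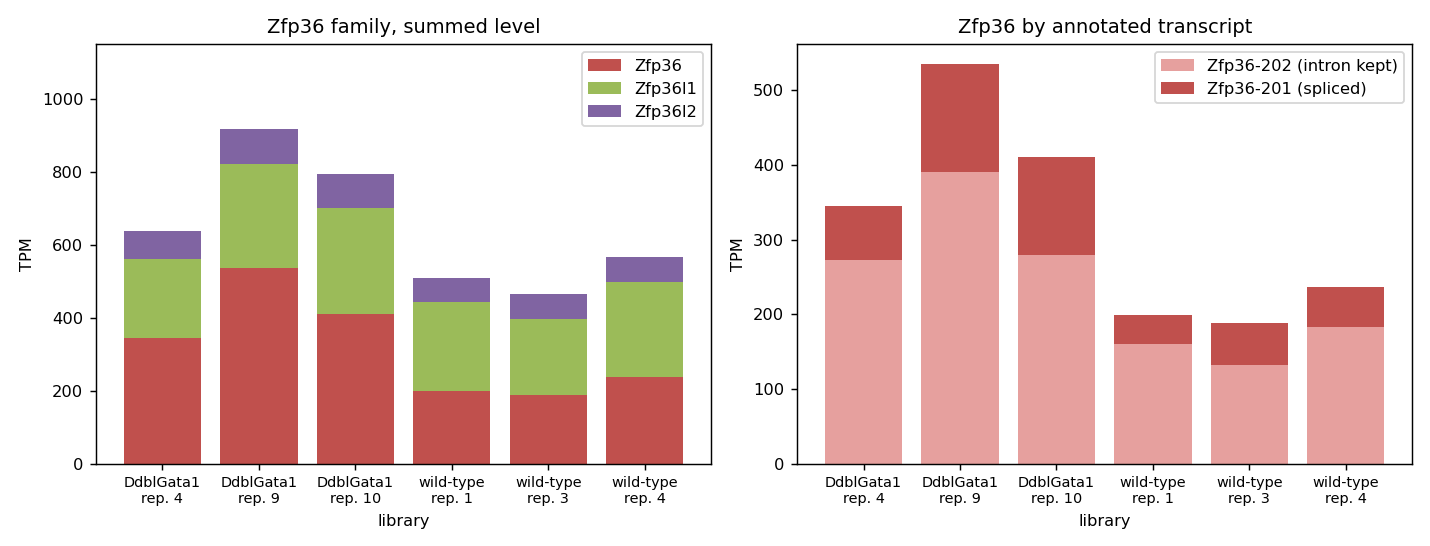
Left, stacked TPM of Zfp36, Zfp36l1 and Zfp36l2 in each library, 3 DdblGata1 and 3 wild-type. The summed bars reach 638 to 917 TPM in DdblGata1 and 466 to 566 TPM in wild-type. Right, TPM of the 2 annotated Zfp36 transcripts, where Zfp36-202 is the larger segment in every library. The split between them does not measure how much Zfp36 RNA keeps the intron.

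Dusp1 (ENSMUSG00000024190, chr17:26505590-26562128, minus strand), the nuclear phosphatase of p38, JNK and ERK, had 318, 430.3 and 415 CPM in DdblGata1 replicates 4, 9 and 10, against 302, 246 and 287 CPM in wild-type replicates 1, 3 and 4. The groups did not overlap, and DdblGata1 replicate 4 lay next to wild-type replicate 1. The means were 388 ± 61.0 CPM in DdblGata1 and 278 ± 29.1 CPM in wild-type (SD, n = 3 each), a log2 fold change of 0.48 ± 0.17 (SE). The annotated Dusp1 span is wider than Dusp1-202, the transcript with most of its TPM, whose exons lie between 26505590 and 26508519. The genes that overlap that span lie outside those exons: Ergic1 and Gm8225 on the opposite strand, AC122252.1 and AC122252.4 on its own.

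Dusp6 (ENSMUSG00000019960, chr10:99263231-99267489, plus strand), the cytoplasmic phosphatase of ERK and a readout of fibroblast growth factor signalling, had 54.1, 47.5 and 43.0 CPM in DdblGata1 replicates 4, 9 and 10, against 51.6, 54.4 and 43.4 CPM in wild-type replicates 1, 3 and 4. The groups overlapped fully, and Dusp6 was the one member with its highest DdblGata1 value in replicate 4. The means were 48.2 ± 5.61 CPM in DdblGata1 and 49.8 ± 5.73 CPM in wild-type (SD, n = 3 each), and the log2 fold change was -0.05 ± 0.16 (SE). The ratio of Dusp1 to Dusp6 in TPM was 6.98, 10.8 and 11.5 in DdblGata1 replicates 4, 9 and 10, against 6.96, 5.37 and 7.88 in wild-type replicates 1, 3 and 4, so that DdblGata1 replicate 4 lay inside the wild-type range.

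Ier2 (ENSMUSG00000053560, chr8:84661331-84662852, minus strand), a nuclear immediate early protein, had 131, 155 and 126 CPM in DdblGata1 replicates 4, 9 and 10, against 107, 94.5 and 89.5 CPM in wild-type replicates 1, 3 and 4. The groups did not overlap, and here DdblGata1 replicate 4 was the middle library of its group. The means were 137 ± 15.3 CPM in DdblGata1 and 97.0 ± 9.08 CPM in wild-type (SD, n = 3 each), a log2 fold change of 0.50 ± 0.15 (SE).

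Btg2 (ENSMUSG00000020423, chr1:134075170-134079120, minus strand), an antiproliferative protein that binds the CCR4-NOT deadenylase and is a p53 target, had 184, 389.85 and 326 CPM in DdblGata1 replicates 4, 9 and 10, against 206, 157 and 199.9 CPM in wild-type replicates 1, 3 and 4. DdblGata1 replicate 4 lay within the wild-type range, and replicates 9 and 10 lay above it. The means were 299.95 ± 105 CPM in DdblGata1 and 188 ± 26.6 CPM in wild-type (SD, n = 3 each). The log2 fold change was 0.68 ± 0.27 (SE). Leaving out DdblGata1 replicate 4 gave 0.93, and leaving out DdblGata1 replicate 9 gave 0.42.

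Ier3 (ENSMUSG00000003541, chr17:35821684-35822923, plus strand), a stress-induced survival factor, had 17.97, 30.2 and 34.1 CPM in DdblGata1 replicates 4, 9 and 10, against 22.8, 21.9 and 20.6 CPM in wild-type replicates 1, 3 and 4. Its lowest value of all was DdblGata1 replicate 4 and its 2 highest were DdblGata1 replicates 9 and 10. The means were 27.4 ± 8.41 CPM in DdblGata1 and 21.8 ± 1.15 CPM in wild-type (SD, n = 3 each). The log2 fold change of 0.33 ± 0.24 (SE) came to 0.56 when DdblGata1 replicate 4 was left out, to 0.13 when DdblGata1 replicate 10 was, and to 0.10 with the 2 deposited surrogate variables as covariates.

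**Figure D2:**
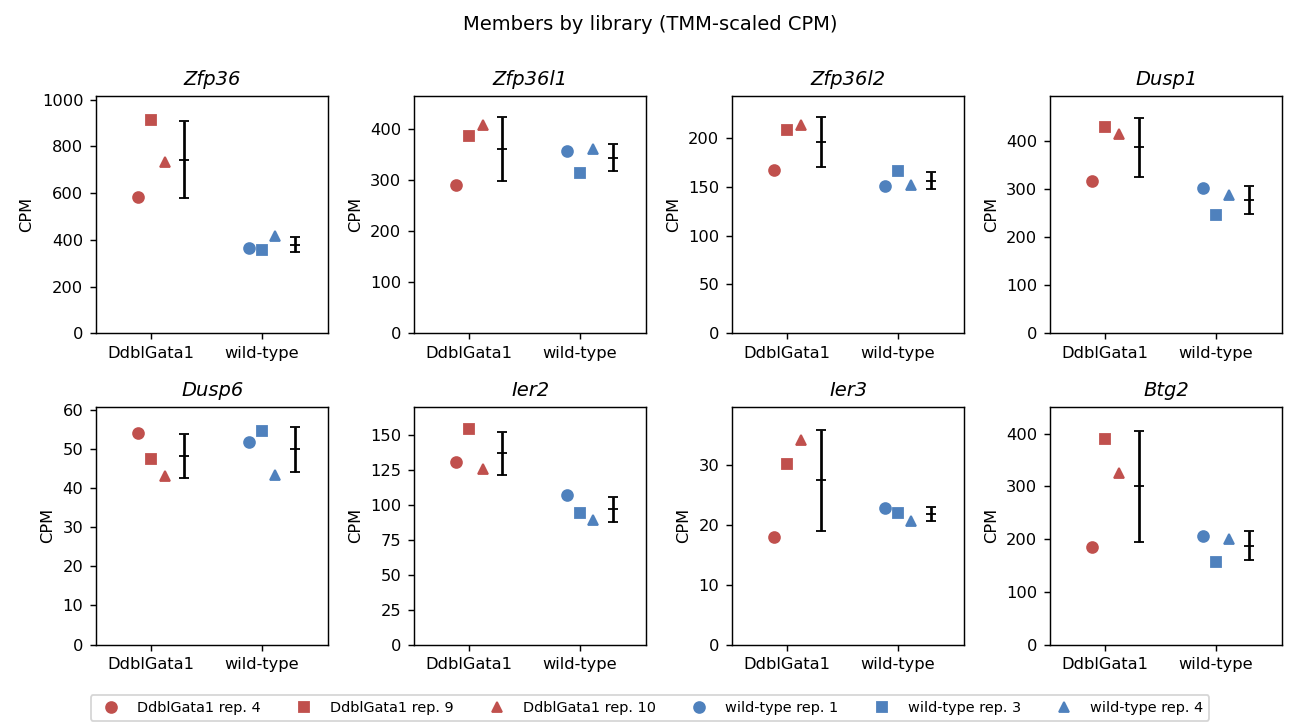
TMM-scaled CPM of each of the 8 genes in every library (points), with the mean and SD of the 3 libraries per genotype (bars), each axis from 0. The genotypes do not overlap for Zfp36, Zfp36l2, Dusp1 and Ier2, and DdblGata1 replicate 4 (circle) is the lowest DdblGata1 point for all but Dusp6 and Ier2.

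Between the genotypes, 4 of the 8 genes did not overlap and were higher in DdblGata1, where 8.98% of all genes did so, and none were lower without overlap (7.34% of all genes). A higher value was seen for 7 of the 8, against 49.3% of all genes, and their median log2 fold change was 0.41, against -0.01 over all genes. Since the genes were picked for this contrast, nothing is read from these shares. The fold changes fell into a group of 4 at or above 0.48 (Zfp36, Btg2, Ier2, Dusp1), a pair at 0.33 (Ier3, Zfp36l2) and a pair near 0 (Zfp36l1, Dusp6).

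**Figure D3:**
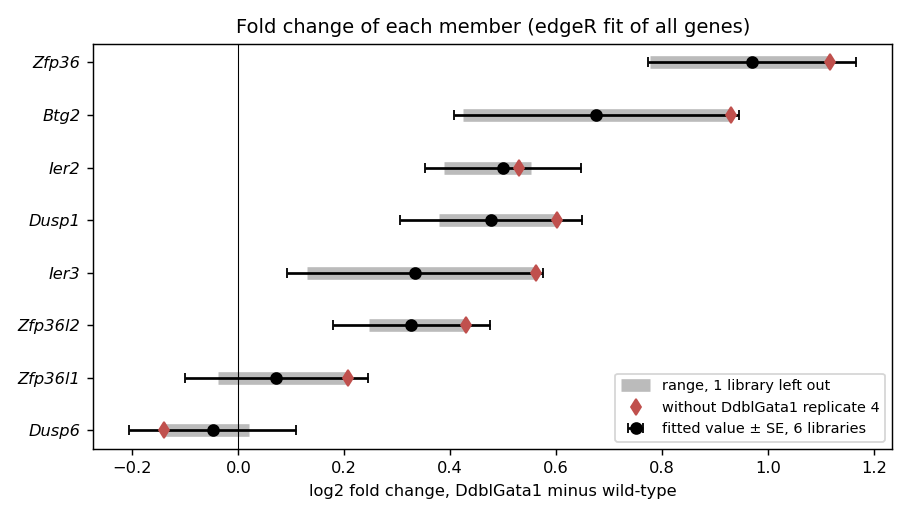
Fitted log2 fold change of each gene, DdblGata1 minus wild-type, with its SE (points and whiskers), the range when 1 library is left out (grey bars) and the value without DdblGata1 replicate 4 (diamonds). Zfp36 lies farthest from 0 at 0.97, Zfp36l1 and Dusp6 reach both sides of 0, and the diamond is at or near the upper end for all but Dusp6.

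DdblGata1 replicates 9 and 10 were both above every wild-type library for 7 of the 8 genes, all but Dusp6, as were 20.6% of all genes. DdblGata1 replicate 4 was above every wild-type library for 4 of the 8, as were 25.7% of all genes, and was below every wild-type library for Zfp36l1 and Ier3. Relative to the mean of DdblGata1 replicates 9 and 10, replicate 4 stood at 0.52 for Btg2, 0.56 for Ier3, 0.71 for Zfp36, 0.73 for Zfp36l1, 0.75 for Dusp1 and 0.79 for Zfp36l2. For Ier2 it stood at 0.94 and for Dusp6 at 1.20. The difference between the genotypes was thus carried by replicates 9 and 10 for Btg2 and Ier3 and shared by all 3 DdblGata1 libraries for Zfp36 and Ier2. The mean centred log2 level of the 8 genes was -0.08, 0.38 and 0.28 in DdblGata1 replicates 4, 9 and 10 and -0.13, -0.25 and -0.21 in wild-type replicates 1, 3 and 4.

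By the rule for likeness, the other genes whose log2 CPM followed that mean profile most closely over the 6 libraries were Nfkbiz (Pearson r = 0.994), Vmn2r53 (0.993), Zbtb44 (0.989), Prdm10 (0.986), Myc (0.985) and Irf1 (0.985), out of 10097 genes with a mean log2 CPM of at least 3. These r values describe 6 libraries that share the genotype split, and with so many genes compared high values are found for some. Nfkbiz, which encodes an inducible nuclear IκB protein, had 83.6, 189 and 174 CPM in DdblGata1 replicates 4, 9 and 10, against 78.9, 71.0 and 71.7 CPM in wild-type replicates 1, 3 and 4. Irf1, an interferon-induced transcription factor, had 75.4, 182 and 132 CPM in those DdblGata1 libraries, against 70.0, 63.3 and 71.0 CPM in wild-type. Both were far higher in DdblGata1 replicates 9 and 10 than elsewhere, with replicate 4 just above the wild-type libraries. Vmn2r53 belongs to a large gene family in which reads may be shared between close copies, so its level is uncertain.

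**Figure D4:**
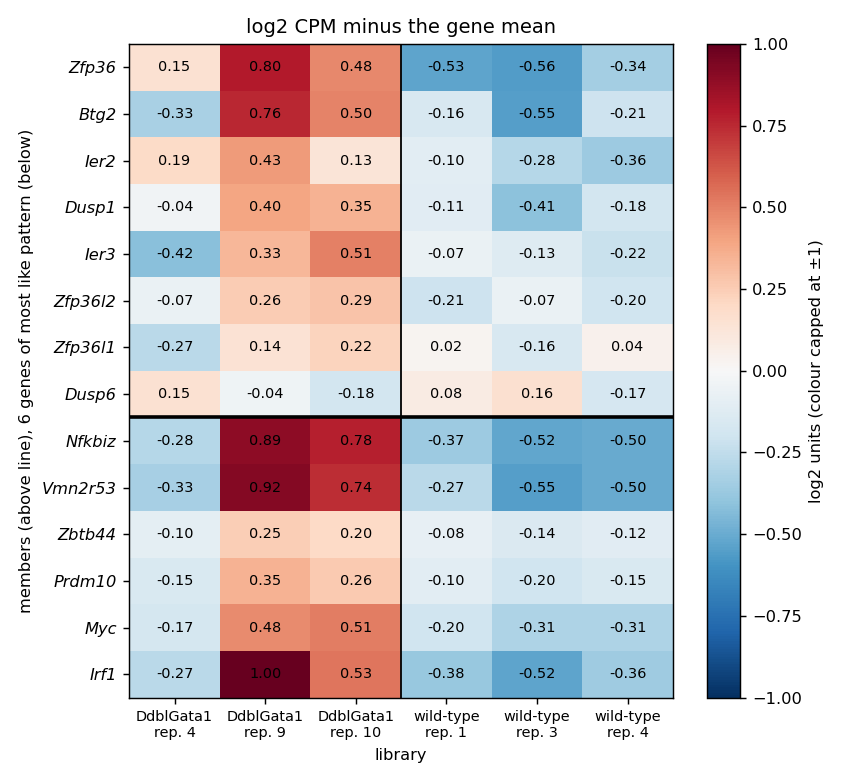
Centred log2 CPM (value minus the gene's mean over 6 libraries, red above and blue below) of the 8 genes and of the 6 genes with the most similar profile. Columns are libraries, DdblGata1 left of wild-type; the deepest red is in DdblGata1 replicates 9 and 10, with Zfp36 at 0.80 and 0.48, and DdblGata1 replicate 4 is pale or blue for most genes.

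Per transcript length, the 8 genes spanned from Dusp6, at the 75.6th percentile of all genes of the table, to Zfp36, at the 97.4th percentile, by mean TPM over the 6 libraries. In DdblGata1 the order of levels was Zfp36 (430.0 ± 96.8 TPM), Dusp1 (360.1 ± 53.3), Zfp36l1 (264 ± 41.4), Btg2 (179 ± 62.3), Ier2 (149 ± 19.0), Zfp36l2 (88.4 ± 10.2), Ier3 (45.7 ± 13.2) and Dusp6 (37.8 ± 5.29; SD, n = 3). The libraries of neighbours in this order overlapped except between Dusp1 and Zfp36l1, between Ier2 and Zfp36l2 and between Zfp36l2 and Ier3. In wild-type the order was Dusp1 (245 ± 32.4 TPM), Zfp36l1 (239 ± 26.7), Zfp36 (208 ± 25.7), Btg2 (106 ± 18.2), Ier2 (99.3 ± 8.65), Zfp36l2 (66.6 ± 2.15), Dusp6 (36.7 ± 2.83) and Ier3 (34.4 ± 1.39; SD, n = 3). Here the top 3 genes overlapped among themselves, as did Btg2 with Ier2 and Dusp6 with Ier3. Zfp36 was therefore the third of 8 by mean in wild-type and the first in DdblGata1. Its range over libraries overlapped that of Dusp1 in both genotypes and that of Zfp36l1 in wild-type, but not that of Btg2. Within each library, with all transcripts of a gene counted, the place of Zfp36 was the same. The order of other genes varied: in DdblGata1 replicate 4, Ier2 at 145 TPM lay above Btg2 at 112 TPM. Zfp36 had 344, 535 and 411 TPM in DdblGata1 replicates 4, 9 and 10, each above Dusp1 at 301, 405 and 374 TPM. In wild-type replicates 1, 3 and 4 it was below both Dusp1 and Zfp36l1 every time.

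Transcript composition, which played no part in the choice of the genes, could be tested for the 4 members with several measured transcripts. None passed the test of usage between DdblGata1 and wild-type: the diffSpliceDGE Simes test gave unadjusted p-values of 0.888 for Zfp36, 0.981 for Dusp6, 0.984 for Zfp36l1 and 0.996 for Dusp1 and an adjusted p of 1 for each, while 0.254% of 9447 genes were called. Zfp36-202, a single-exon model of 2465 bases that keeps the 680-base intron at chr7:28378494-28379173, took 79.0%, 73.0% and 67.9% of Zfp36 TPM in DdblGata1 replicates 4, 9 and 10, against 80.4%, 70.3% and 77.2% in wild-type replicates 1, 3 and 4. The groups overlapped. Both Zfp36 transcripts had higher levels in every DdblGata1 library: the spliced Zfp36-201 had 72.3, 144 and 132 TPM in DdblGata1, against 39.0, 55.9 and 53.9 TPM in wild-type, and Zfp36-202 had 272, 391 and 279 TPM in DdblGata1, against 159.75, 132 and 183 TPM in wild-type. The Zfp36 difference was thus present in both models. As no spliced model starts near the RefSeq start, these shares do not measure how much Zfp36 RNA keeps the intron.

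For Dusp1, the 2 retained-intron models took 5.92%, 11.9% and 9.13% of TPM in DdblGata1 replicates 4, 9 and 10, against 9.22%, 6.18% and 5.91% in wild-type replicates 1, 3 and 4. Their summed level was 17.8, 48.3 and 34.1 TPM in DdblGata1 and 24.3, 12.8 and 15.6 TPM in wild-type, so that the 2 libraries with the most Dusp1 also had the most intron-bearing Dusp1, and DdblGata1 replicate 4 lay within the wild-type range. The share of the coding Dusp6-201 was 72.9%, 75.6% and 74.2% in DdblGata1 and 70.6%, 72.4% and 71.6% in wild-type, without overlap but within the p given above. Zfp36l2, Ier2, Ier3 and Btg2 were each measured as 1 transcript.

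Genes that work with or on the 8 members were read from lists of textbook roles. Across all 15238 genes edgeR called 0% at an adjusted p of 0.05 (lowest adjusted p 0.384). At an unadjusted p under 0.05 edgeR had 10.3% of genes, 6.03% higher and 4.23% lower in DdblGata1, and DESeq2 called 0.932% higher and 0.473% lower at an adjusted p of 0.05. These shares are the background for each count below, and edgeR called 0 list genes after adjustment.

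Classic targets of Zfp36, mostly cytokine and growth factor messages, were higher more often than lower in DdblGata1, as Zfp36 itself was. Of 12 measured target genes, 7 were higher and 1 lower at an unadjusted p under 0.05 by edgeR, DESeq2 called 5 higher and 0 lower, and the median log2 fold change was 0.81, against -0.01 over all genes. The neutrophil chemokine Cxcl1 had 45.0, 139 and 121 CPM in DdblGata1 replicates 4, 9 and 10, against 25.5, 37.7 and 31.9 CPM in wild-type replicates 1, 3 and 4 (DESeq2 adjusted p 0.00328, edgeR adjusted p 0.384). The cytokine Il6 had 9.13, 38.8 and 36.5 CPM in DdblGata1, against 7.17, 7.52 and 6.58 CPM in wild-type (DESeq2 adjusted p 0.00459). For both, DdblGata1 replicates 9 and 10 stood far above the rest, by more than for any of the 8 members, and replicate 4 stood just above wild-type.

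The other genes DESeq2 called on the target list were the monocyte chemokine Ccl2 (log2 fold change 1.76 ± 0.40, SE; DESeq2 adjusted p 0.00553), the cytokine Lif (1.06 ± 0.25; 0.0157) and the protease Plau (1.02 ± 0.28; 0.0496). A lower value was seen for 2 targets. Plaur, the receptor of the Plau protease, had 8.21, 4.57 and 3.94 CPM in DdblGata1 replicates 4, 9 and 10, against 6.89, 6.10 and 8.05 CPM in wild-type replicates 1, 3 and 4, with overlap. Il1b was the one with an unadjusted p under 0.05, with 0.110, 0.397 and 0.452 CPM in DdblGata1 replicates 4, 9 and 10, against 3.57, 2.10 and 0.262 CPM in wild-type replicates 1, 3 and 4. The leukocyte markers also had their highest sum, 61.3 TPM, in wild-type replicate 1, and their part in the Il1b value was not tested. The count of target genes called higher by DESeq2 was 8 without DdblGata1 replicate 4, 0 without DdblGata1 replicate 9, 0 without DdblGata1 replicate 10 and 3 to 5 without a wild-type replicate. Over all genes the same counts were 537, 49, 32 and 76 to 192, against 142 with all 6 libraries, so the background moved as well. The sites of Cxcl1 and of the cytokine Tnf, the best studied Zfp36 target, hold the same nonamer as those of the Zfp36 family, marked in capitals, although Tnf itself had under 0.4 CPM in every library.
Cxcl1, chr5:90892615-90892644, plus strand: atttatgtatTTATTTATTccacaaagtgt
Tnf, chr17:35199688-35199717, minus strand: tttgcacttaTTATTTATTatttatttatt

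Not every higher target held these letters: the 3′ UTRs of Ccl2 and Myc had no heptamer. Over all genes with a 3′ UTR, the median log2 fold change was 0.08 for 4124 genes with the heptamer and -0.04 for 10124 genes without it, and 0.08 for 1069 genes with the nonamer. UTRs with the heptamer were longer (median 1986 against 760 bases). Among UTRs of 1500 to 3000 bases the medians were 0.08 for 1360 genes with the heptamer, 0.02 for 1871 without it and 0.02 for 338 with the nonamer. At like length the difference in medians was thus smaller for the heptamer and not seen for the nonamer. At an unadjusted edgeR p under 0.05, 8.90% of these heptamer genes, 6.31% of those without it and 8.58% of the nonamer genes were higher. In the same order, 3.02%, 4.44% and 3.55% were lower. No test was run on these medians or shares.

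The deadenylation and decay machinery that Zfp36 proteins and Btg2 recruit had a median of 0.13 over its 21 genes on the log2 fold change scale. Of these, 3 were higher and 0 lower at an unadjusted p under 0.05 (Xrn1, Pan3 and Cnot6), and DESeq2 called 0. Without overlap, 7 were higher (8.98% of all genes were) and 0 lower (7.34% of all genes were). The exonuclease Xrn1 had 70.1, 77.0 and 93.3 CPM in DdblGata1 replicates 4, 9 and 10, against 40.1, 66.7 and 59.4 CPM in wild-type replicates 1, 3 and 4. The deadenylase subunit Cnot6 had 147, 148 and 157 CPM in DdblGata1, against 94.9, 117 and 136.5 CPM in wild-type, and the CCR4-NOT scaffold Cnot1 averaged 158 ± 23.7 CPM in DdblGata1 and 157 ± 29.3 CPM in wild-type (SD, n = 3 each).

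Other proteins that bind AU-rich elements or stem-loops had a median of 0.06 over 14 genes, with 3 higher and 0 lower at an unadjusted p under 0.05 and 0 called by DESeq2. The 3 were the Roquin genes Rc3h1 and Rc3h2 and the Regnase-1 gene Zc3h12a, which act on stem-loops of inflammatory messages. Rc3h2 had 49.3, 62.9 and 65.5 CPM in DdblGata1 replicates 4, 9 and 10, against 38.8, 39.6 and 39.6 CPM in wild-type replicates 1, 3 and 4, without overlap, and its log2 fold change was 0.59 ± 0.15 (SE). Rc3h1 had 75.6, 73.8 and 96.4 CPM in DdblGata1, against 54.5, 67.5 and 60.9 CPM in wild-type. The list median came to -0.03 when wild-type replicate 1 was left out and to 0.21 when wild-type replicate 4 was.

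The other MAP kinase phosphatases had values in the other direction from Dusp1. All 8 measured genes of that list had a lower value in DdblGata1, with a median log2 fold change of -0.26 (-0.15 to -0.36 over the alternatives run), yet 0 passed at an unadjusted p under 0.05 in edgeR and DESeq2 called 0. Dusp14 had 3.15, 4.14 and 3.23 CPM in DdblGata1 replicates 4, 9 and 10, against 6.07, 4.28 and 5.11 CPM in wild-type replicates 1, 3 and 4. It was the one gene of the list that did not overlap, where 7.34% of all genes were lower without overlap. Dusp10, a phosphatase of p38 and JNK, averaged 14.9 ± 2.79 CPM in DdblGata1 and 17.4 ± 2.04 CPM in wild-type, and the ERK phosphatase Dusp5 averaged 8.40 ± 1.67 CPM in DdblGata1 and 10.1 ± 2.47 CPM in wild-type (SD, n = 3 each).

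Negative feedback and output genes of ERK signalling, the pathway that Dusp6 serves, stayed near the background. Of 15 genes, 1 was higher (Spred1) and 1 lower (Spry1) at an unadjusted p under 0.05, DESeq2 called 0, and the median was -0.07, or -0.23 without DdblGata1 replicate 4 and 0.16 without DdblGata1 replicate 10. The ERK pathway inhibitor Spry1 had 79.3, 77.0 and 56.4 CPM in DdblGata1 replicates 4, 9 and 10, against 101, 99.0 and 82.6 CPM in wild-type replicates 1, 3 and 4. The inhibitor Spred1 had 135, 147 and 170.3 CPM in DdblGata1, against 88.3, 116 and 124 CPM in wild-type, without overlap.

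The kinases of the MAP kinase cascade had a median of 0.04 over 21 genes, or 0.09 without DdblGata1 replicate 4, and 1 was higher at an unadjusted p under 0.05. That gene was Map3k8, the kinase that couples inflammatory receptors to ERK, with 8.76, 22.0 and 23.7 CPM in DdblGata1 replicates 4, 9 and 10, against 5.98, 9.41 and 6.90 CPM in wild-type replicates 1, 3 and 4. DdblGata1 replicate 4 lay within the wild-type range, as it did for Btg2. The p38 kinase Mapk14 averaged 75.3 ± 2.89 CPM in DdblGata1 and 73.9 ± 4.01 CPM in wild-type, and Mapkapk2, the gene of MK2, averaged 101 ± 19.7 CPM in DdblGata1 and 113 ± 12.5 CPM in wild-type (SD, n = 3 each).

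Among relatives of Btg2, 4 genes were measured with a median of 0.16 (0.05 to 0.25 when 1 DdblGata1 library was left out) and 1 was higher at an unadjusted p under 0.05. This was Btg3, with 22.6, 20.4 and 21.6 CPM in DdblGata1 replicates 4, 9 and 10, against 17.0, 16.9 and 16.2 CPM in wild-type replicates 1, 3 and 4. Tob1 had its lowest value of all, 31.6 CPM, in DdblGata1 replicate 4 and its highest, 65.7 and 70.9 CPM, in DdblGata1 replicates 9 and 10, against 56.7, 43.2 and 41.2 CPM in wild-type, an arrangement like that of Ier3. Of 14 p53 targets, a list Btg2 also belongs to by function, 0 were higher and 1, Aen, was lower at an unadjusted p under 0.05, and DESeq2 called 0. Ier5 and Ier5l, relatives of Ier2, had log2 fold changes of 0.12 ± 0.20 and 0.07 ± 0.21 (SE).

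Other immediate early genes, a list that includes genes known to respond to tissue digestion, were likewise higher more often than lower. Of 29 genes, 15 were higher and 1, Srf, lower at an unadjusted p under 0.05, DESeq2 called 5 higher and 1 lower, and the median log2 fold change was 0.47, or 0.30 without DdblGata1 replicate 9. The transcription factor Klf6 averaged 301 ± 27.2 CPM in DdblGata1 and 193 ± 23.0 CPM in wild-type, and Nfkbia, the inhibitor of NF-κB, averaged 117 ± 39.1 CPM in DdblGata1 and 58.9 ± 7.56 CPM in wild-type (SD, n = 3 each; DESeq2 adjusted p 0.0253 and 0.0303). Srf, whose product binds the CArG box, averaged 42.2 ± 6.69 CPM in DdblGata1 and 73.1 ± 10.6 CPM in wild-type (SD, n = 3 each; DESeq2 adjusted p 0.0146). DESeq2 called 10 list genes higher without DdblGata1 replicate 4, 0 without DdblGata1 replicate 9, 1 without DdblGata1 replicate 10 and 0 to 2 without a wild-type replicate. Over all genes those fits called 537, 49, 32 and 76 to 192 higher. Heat shock genes, 10 in all, had a median of 0.10 with 1 higher (Dnaja1) and 1 lower (Hspb1) at an unadjusted p under 0.05, but this median had no fixed sign: it was -0.10 without DdblGata1 replicate 9, 0.34 without DdblGata1 replicate 10, 0.41 without wild-type replicate 1, -0.01 without wild-type replicate 3, 0.0035 without wild-type replicate 4 and 0.47 with the deposited surrogate variables. The part of tissue digestion in the levels of the 8 members was not tested.

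**Figure D5:**
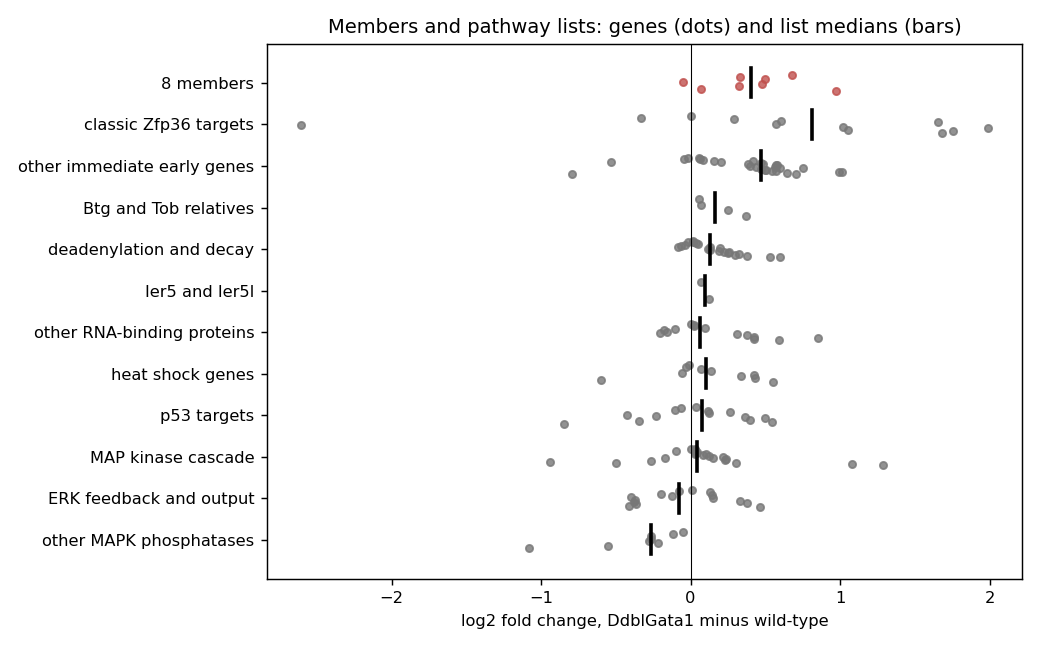
Fitted log2 fold change, DdblGata1 minus wild-type, of every measured gene of each list (dots; the 8 members in red) with the list median (black bars). The members' median is 0.41, that of classic Zfp36 targets 0.81 and that of other immediate early genes 0.47, while all dots of the other MAP kinase phosphatases lie left of 0.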

How the data were processed

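The deposited gene table holds the authors' estimated counts (expected counts) per gene, rounded. Of its values, 99.7% equalled TPM summed per gene, scaled by mean transcript length and library total, within 1% plus 1 count. The deposited transcript files give kallisto's estimated counts, TPM and other values, namely effective lengths in bases. The deposited sample sheet gives size factors as a ratio and 2 surrogate variables as a score. In the submitters' processing notes the tools are kallisto, DESeq2, bcl2fastq 2.2 and R 4.2.2, and the builds GRCm38.p6 and mm10; the sources used here do not assign tools to steps. No gene of the table has under 10 counts in more than 3 of the libraries.

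All 15238 genes were fitted with edgeR 4.0.16 in R 4.3.3 (TMM, filterByExpr, which removed none, robust quasi-likelihood, Benjamini-Hochberg at 0.05), without covariates. DESeq2 1.42.0 was the alternative test. CPM are TMM-scaled, log2 CPM used a prior count of 2, and diffSpliceDGE tested transcript usage on transcript counts after rounding. Coordinates, transcripts and 3′ UTRs are from GENCODE M21 (GRCm38). Depth was 28110454 to 31210800 counts per library. The scripts were tested on simulated data. The members and lists were chosen with earlier results of these data known. Named were all members and up to 4 genes per list, by smallest unadjusted edgeR p at a mean CPM of at least 1. Also named were 6 genes of the most similar profile and up to 3 transcripts per member. Tnf, Il1b, Plaur, Myc, Cnot1, Mapk14, Mapkapk2 and the DESeq2-called Plau were added after their values were seen. So were the marker genes Ptprc, Prg2, Siglecf, Cd3e, Cd68, Lyz2, Coro1a, Cd52 and Tek. Alternatives were RLE and upper-quartile scaling, no filter, a CPM of at least 1 in at least 3 libraries, plain transcript sums, the surrogate variables, for transcripts a gene-level F test or a minimum share of 10%, and each library left out in turn; DESeq2 without each library was added after seeing the data.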

Additional observations from a re-analysis of the deposited data

How the results depend on the processing

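The median log2 fold change of the 8 members kept its direction in every alternative run, between 0.32 without DdblGata1 replicate 9 and 0.55 without DdblGata1 replicate 4. Of 104 values of single members, 4 changed sign: Zfp36l1 was -0.02 with the surrogate variables and -0.04 without DdblGata1 replicate 10, while Dusp6 came to 0.01 when DdblGata1 replicate 10 was left out and to 0.02 when wild-type replicate 3 was. The count of genes called was 0 with edgeR, 0 to 1 leaving out 1 library, 214 with DESeq2 and, with DESeq2 leaving out 1 library, 1025, 84 and 43 (DdblGata1 replicates 4, 9 and 10) or 106, 239 and 165 (wild-type replicates 1, 3 and 4). The count of genes with changed transcript usage was 24, 47 with a gene-level F test, 0 with a 10% share filter and 2 to 70 leaving out 1 library; none of the members was among those of the first test. The cause of these shifts was not tested. No paired analysis was possible because the groups share only 1 replicate number. Upper-quartile scaling moved the median of all genes to -0.06 and every list with it. Of the values that answer no comparison, 9 list medians moved by more than their spread and 238 values did not. The lowest estimated count of any member was 485, for Ier3 in DdblGata1 replicate 4.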
